A study of Danio rerio with 12 samples.

Results

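Cardiac jelly is the hyaluronan-rich extracellular matrix between the myocardium and the endocardium of the early heart. Its central genes were followed in sorted heart cells of zebrafish: the hyaluronan synthases *has1*, *has2* and *has3*, the versicans *vcana* and *vcanb*, the link proteins *hapln1a* and *hapln1b*, the precursor enzyme *ugdh* and the hyaluronan receptor *cd44a*. These 9 genes were chosen for making, binding or linking hyaluronan, out of 27191 genes counted. All 9 passed the filter on low counts, as did 23222 genes in all. Each of the 9 was matched to an Ensembl identifier by its symbol. For *has2* and *has3* the match was to the same letters in capitals. The identifier of *hapln1b*, ENSDARG00000068516, carries the human symbol in the name table, without the b. That identifier was assigned because ENSDARG00000089769 is named *hapln1a*.

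The cells came from *sqet31Et*, whose trapped enhancer drives EGFP in the atrioventricular canal (AVC), the ring between atrium and ventricle where valves form and which slows conduction. The reporter uses a minimal *krt4* promoter, its insertion site is not mapped, and other myocardial cells can be weakly fluorescent. All groups carried this insertion, and the labels name no other allele or agent. Hearts were dissected, pooled and dissociated, and cells were sorted into a fluorescent (GFP+) and a nonfluorescent (GFP-) fraction at 48 and at 72 hours post fertilization (hpf), which gave 4 groups of 3 libraries. At 72 hpf EGFP is also on in the bulbus arteriosus, the elastic outflow chamber, so the GFP+ fraction of that stage held those cells too.

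Hyaluronan is a long sugar polymer, extruded through the cell membrane by the synthases from activated sugars made in the cytoplasm. Versican, a chondroitin sulfate proteoglycan, binds the polymer through its first domain, and link proteins lock that bond. In zebrafish the loss of *ugdh* in the *jekyll* mutant prevents valve formation at the AVC, and in mouse the loss of Has2 leaves the heart without cardiac jelly and cushions.

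Total counts per library ran from 20530602 to 62359004. Levels are given as CPM, counts scaled to library size after TMM, and they compare a gene between libraries, not genes with each other, because the values are not per length. Sums over marker genes differed between the fractions. The 10 cardiomyocyte markers summed to between 2593 and 4957 CPM in GFP+ and between 63.3 and 248 in GFP- libraries at 48 hpf, and to between 1632 and 2537 and between 341 and 1352 at 72 hpf. The 6 AVC myocardium markers reached 256 to 274 CPM in GFP+ and 194 to 205 in GFP- libraries at 48 hpf, and 283 to 340 and 156 to 279 at 72 hpf. Taken singly in the test used below, 3 of these 6 were higher in GFP+ cells at 48 hpf. At 72 hpf 1 was higher and 1 lower. The 7 markers of smooth muscle and bulbus arteriosus reached 6635 to 7940 CPM in GFP+ libraries at 72 hpf, against 1642 to 3147 in GFP- libraries. Markers of cell types from outside the heart were also detected, and the source of their RNA was not tested. At 48 hpf 10 liver markers summed to between 553 and 2405 CPM in GFP+ and between 13.8 and 52.2 in GFP- libraries, with *ahsg1* at 0 in the latter. In the same libraries 8 neuron markers summed to between 945 and 1158 CPM in GFP+ and between 3397 and 6635 in GFP-. These 8 identifiers take in every one named STMN1, although only the copy *stmn1b* was listed as a neuron marker. Replicate 1 of the GFP- fraction at 72 hpf stood apart. Its 10 highest genes took 21.0% of its counts, its 7 red cell markers summed to 37846 CPM against 4142 and 4938 in the other libraries of its group, and its TMM factor was 0.575. Calls of the 9 genes that change without it are given both ways. The part of these cell types in the results below was not tested. In such bulk samples fewer cells of a type and less RNA per cell cannot be told apart.

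**Figure D1:**
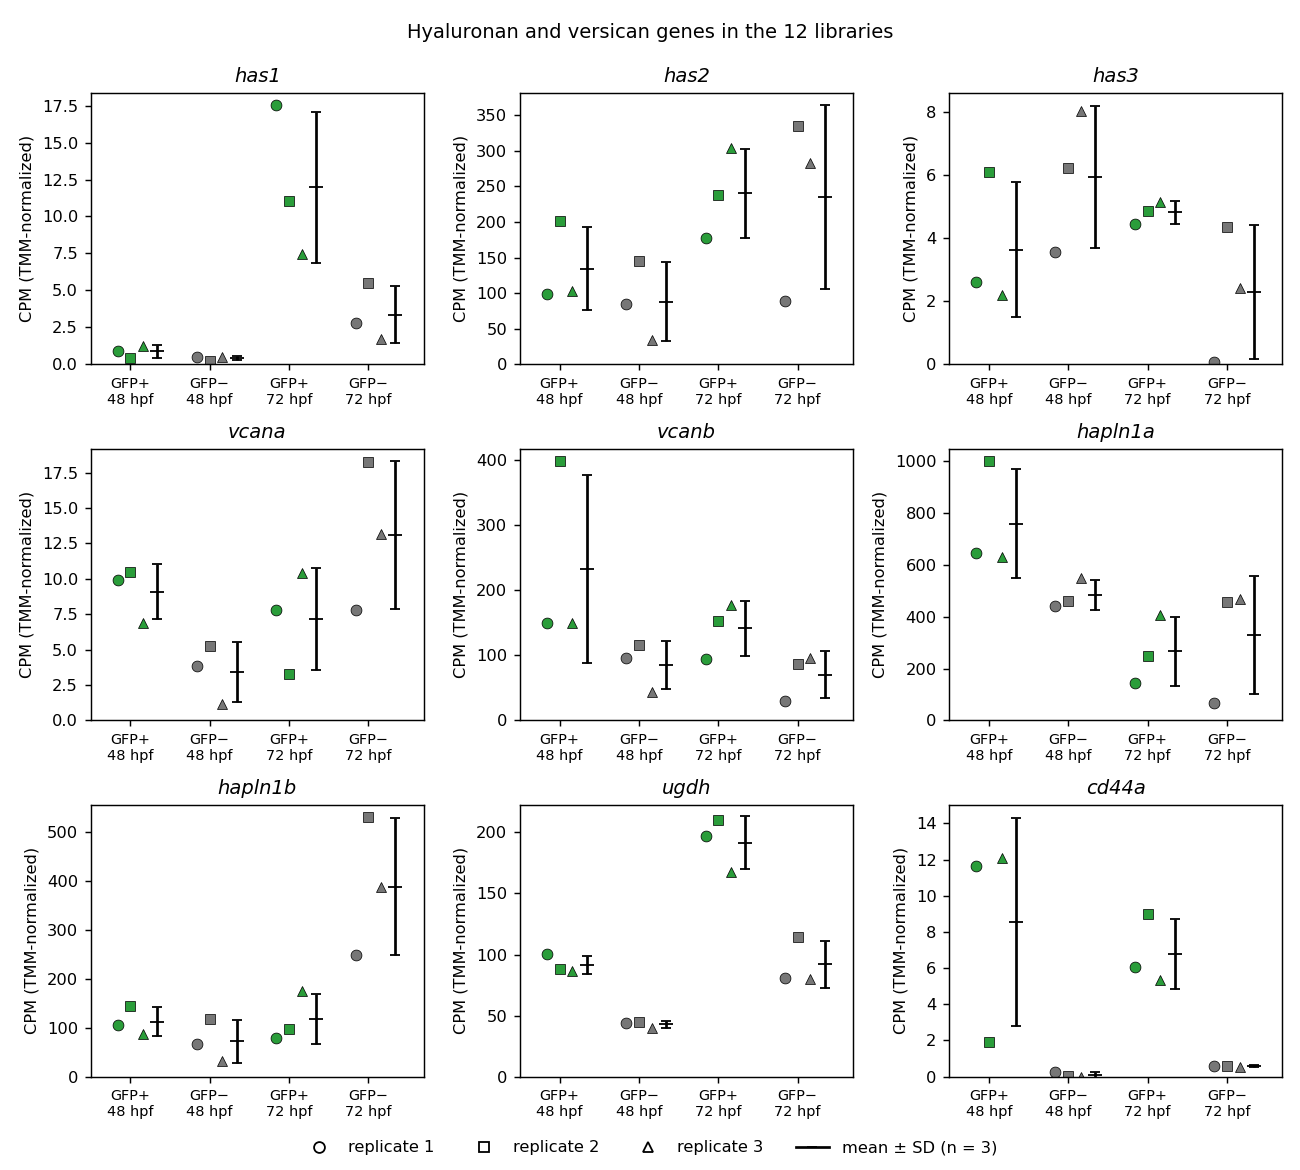
Level of each gene in CPM after TMM scaling (vertical axis, starting at 0) in the 12 libraries, green for GFP+ and grey for GFP-, with the replicate number as the symbol and the mean with SD (n = 3) beside each group. The *ugdh* libraries lie between 86.4 and 100.2 CPM in GFP+ and between 39.5 and 44.7 in GFP- at 48 hpf, while those of *has2* overlap between the fractions at both stages.

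The first question was which of the genes differed between the GFP+ and the GFP- fraction. At 48 hpf, 2 of the 9 genes were higher in GFP+ cells, *ugdh* and *cd44a*, and the other 7 did not pass the test. Without GFP- replicate 1 at 72 hpf 4 were called, beside 9342 of 23839 genes tested. With the replicate block 4 were also called, beside 7613 of 23222 genes, against 6720 of 23222 with neither change. A gene counted as changed at an adjusted p (padj) below 0.05 in edgeR's quasi-likelihood test over all 23222 genes, and 28.9% of those passed at 48 hpf, 14.6% as higher and 14.4% as lower in GFP+. The libraries of the fractions did not overlap for 5 of the 9 genes, against 55.2% of all genes. At 72 hpf, *has1*, *ugdh* and *cd44a* were higher and *hapln1b* was lower in GFP+ cells. These 4 of 9 stand beside 17.0% of all genes, 6.22% higher and 10.8% lower, and 5 of the 9 did not overlap, against 31.3% of all genes. The median log2 fold change (log2FC) of the 9 genes, GFP+ minus GFP-, was 1.0965 at 48 hpf, where that of all genes tested was 0.03, and 1.00 against -0.02 at 72 hpf.

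The second question was what changed between 48 and 72 hpf. In GFP+ cells *has1* and *ugdh* rose, 2 of 9 beside 22.9% of all genes. In GFP- cells *has1*, *has2*, *vcana*, *hapln1b*, *ugdh* and *cd44a* rose, 6 of 9 beside 48.3% of all genes, 26.1% rising and 22.3% falling. The libraries of the stages did not overlap for 3 of the 9 genes in GFP+ cells and for 5 of the 9 in GFP- cells, against 49.9% and 55.2% of all genes. The interaction, which asks whether the difference between the fractions changed with the stage, passed for *hapln1b* alone, 1 of 9 beside 8.17% of all genes, 2.47% upward and 5.7% downward. Without GFP- replicate 1 at 72 hpf 2 of the 9 passed, beside 2655 of 23839 genes, against 1897 of 23222 with all libraries. The comparisons share groups, so a high library of 1 group enters several of them.

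**Figure D2:**
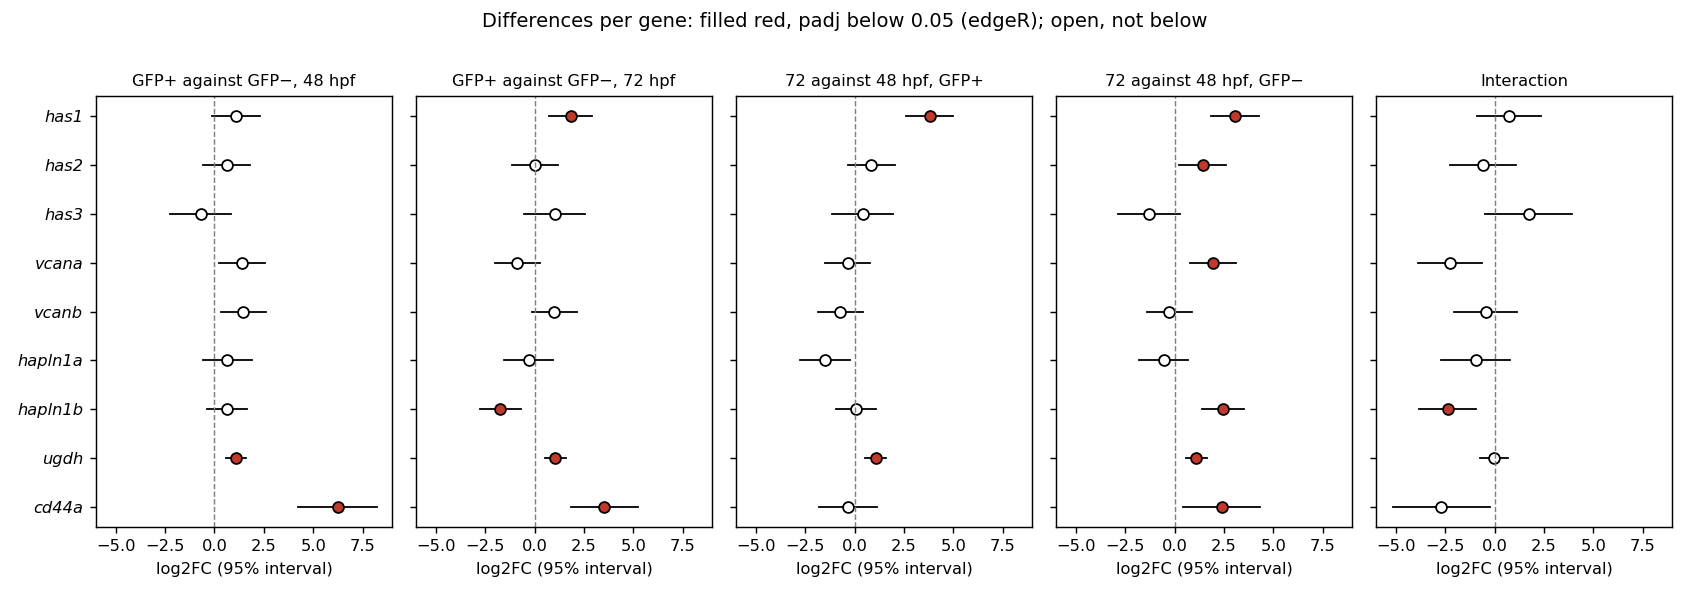
Log2 fold change of each gene (horizontal axis, points) with its 95% confidence interval (lines) in the 4 comparisons and the interaction, where filled points have padj below 0.05. For *ugdh* the 4 comparisons lie between 1.06 and 1.101 with narrow intervals, and the interaction at -0.04.

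The precursor enzyme *ugdh* (ENSDARG00000019838) oxidises UDP-glucose to UDP-glucuronate, which every hyaluronan and chondroitin chain needs. At 48 hpf it stood at 100.2, 88.3 and 86.4 CPM in GFP+ replicates 1 to 3 and at 44.3, 44.7 and 39.5 in GFP- replicates. At 72 hpf the values were 197, 210.2 and 167 CPM in GFP+ and 81.1, 114 and 80.0 in GFP- cells. Every GFP+ library thus lay above every GFP- library of its stage, and every 72 hpf library above every 48 hpf library of its fraction. The order of the group means was GFP+ at 72 hpf, GFP- at 72 hpf, GFP+ at 48 hpf and GFP- at 48 hpf, and the middle groups, at 91.8 ± 19.6 and 91.6 ± 7.46 CPM (SD, n = 3), overlapped. The log2FC between the fractions was 1.098 (SE 0.24, padj = 0.0045) at 48 hpf and 1.06 (SE 0.24, padj = 0.0087) at 72 hpf. Between the stages it was 1.06 (SE 0.24, padj = 0.0078) in GFP+ and 1.101 (SE 0.24, padj = 0.0031) in GFP- cells, and the fold changes lay between 2.09 and 2.15. The 4 calls held without any single library. With total counts in place of TMM, which moved the median of all genes between the stages from -0.02 to -0.32 in GFP+ and from 0.14 to -0.10 in GFP- cells, *ugdh* kept its direction but missed the threshold between the stages, at 0.76 (padj = 0.12) in GFP+ and 0.87 (padj = 0.051) in GFP- cells. It also missed it between the fractions at 72 hpf with total counts (padj = 0.058) and when only those groups were fitted (padj = 0.13). Marker sums of other cells moved with *ugdh*. The 8 neuron markers summed to between 945 and 1158 CPM in GFP+ and between 3397 and 6635 in GFP- libraries at 48 hpf, and to between 269 and 306 and between 840 and 1919 at 72 hpf, with r = -0.98 to *ugdh* over the 12 libraries. The 5 epicardium markers summed to between 153 and 183 and between 46.6 and 86.5 CPM at 48 hpf, and to between 221 and 404 and between 146 and 201 at 72 hpf, with r = 0.94. Their part in the differences of *ugdh* was not tested.

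Of the synthases, *has2* (ENSDARG00000036987) makes the hyaluronan of the cardiac jelly in mouse and zebrafish hearts. The 48 hpf libraries held 98.6, 202 and 103 CPM in GFP+ replicates 1 to 3 and 84.2, 145 and 34.3 in GFP- replicates. The later libraries held 178, 238 and 304 CPM in GFP+ and 88.4, 335 and 283 in GFP- cells. The fractions overlapped at both stages, and each group spread widely around its mean. Group means ordered as 240 ± 63.1 CPM in GFP+ and 235 ± 129.9 in GFP- cells at 72 hpf, then 134 ± 58.6 in GFP+ and 87.9 ± 55.5 in GFP- cells at 48 hpf (SD, n = 3), and no neighbours in that order separated. No difference between the fractions passed the test, with log2FC 0.61 (95% interval -0.57 to 1.80) at 48 hpf and 0.03 (-1.15 to 1.21) at 72 hpf. Differences of more than 2-fold in either direction at 72 hpf lie inside that interval. In GFP- cells *has2* rose by a log2FC of 1.42 (SE 0.56, padj = 0.0498), just past the threshold, although replicate 1 at 72 hpf was lower than replicate 2 at 48 hpf. That call was lost when any of 10 of the 12 libraries was left out (padj 0.050 to 0.16), the exceptions being GFP- replicate 2 at 48 hpf and GFP- replicate 1 at 72 hpf. It was also lost with total counts (1.28, padj = 0.14), with no filter on low counts (1.40, padj = 0.057) and when only those groups were fitted (1.44, padj = 0.11). Without GFP- replicate 1 at 72 hpf the rise was 1.79 (padj = 0.0090) and the 72 hpf difference between the fractions was -0.34 (padj = 0.67).

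The level of *has2* went in part with the marker sums of endothelium and fibroblasts. Its lowest library, GFP- replicate 3 at 48 hpf, also had the lowest sum of 6 endothelial and endocardial markers (463 CPM) and of 5 fibroblast markers (847 CPM). GFP- replicate 1 at 72 hpf, the lowest of its stage in *has2*, also had the lowest sums of that stage, at 761 and 1164 CPM. The highest library, GFP- replicate 2 at 72 hpf, had the highest endothelial sum (2676 CPM), while its fibroblast sum of 5805 CPM was below those of GFP+ replicate 2 at 48 hpf (9205) and of replicate 3 of either fraction at 72 hpf (7051 and 7026). In GFP+ libraries the endothelial sum was 1181 to 2153 CPM at 48 hpf and 799 to 1206 at 72 hpf, while the *has2* mean was the higher at 72 hpf. Over the 12 libraries Pearson's r of log2 CPM with the summed markers was 0.82 for fibroblast, 0.75 for endothelial, 0.80 for the 7 cartilage and -0.71 for neuron markers. For the 5 valve endocardium markers it was 0.47. The cartilage list holds the aggrecan gene *acana*, itself a hyaluronan-binding matrix gene, and r with the other 6 was 0.78. The points share depth, scaling and the groups' own differences, and these values are descriptions.

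The second synthase, *has1* (ENSDARG00000042983), was at low counts at 48 hpf, between 9 and 35 reads per library. Its levels there were 0.921, 0.425 and 1.24 CPM in GFP+ and 0.488, 0.247 and 0.461 in GFP- cells. At 72 hpf they reached 17.5, 11.02 and 7.44 CPM in GFP+ and 2.80, 5.49 and 1.74 in GFP- cells. Both fractions at 72 hpf lay above both at 48 hpf, and at 72 hpf each GFP+ library was above each GFP- library, whereas the fractions overlapped at 48 hpf. From 48 to 72 hpf *has1* rose 14.0-fold in GFP+ cells (log2FC 3.81, SE 0.55, padj = 0.00074) and 8.41-fold in GFP- cells (log2FC 3.07, SE 0.56, padj = 0.0011), the latter with a log2FC of 2.47 without GFP- replicate 2 at 72 hpf. The difference between the fractions at 72 hpf, log2FC 1.83 (SE 0.51, padj = 0.025), was lost without GFP+ replicate 1 (1.38, padj = 0.13), GFP+ replicate 2 (1.90, padj = 0.059) or GFP- replicate 3 (1.52, padj = 0.067), and was 2.43 without GFP- replicate 2. It was also lost when only these groups were fitted (1.74, padj = 0.075). Over the 12 libraries *has1* followed the summed smooth muscle and bulbus arteriosus markers with r = 0.94, which were at most 153 CPM in any library at 48 hpf. Its r was 0.84 with the epicardium, 0.83 with the cartilage and -0.84 with the neuron sum. With the 6 cartilage markers other than *acana* it was 0.64. Among GFP- libraries of 72 hpf, replicate 1 had the highest smooth muscle sum (3147 CPM) and replicate 2 the highest *has1*. The difference between the stages enters these values of r, which are descriptions. The part of the bulbus arteriosus cells in the rise of *has1* was not tested.

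The third synthase, *has3* (ENSDARG00000057210), passed no test. Its levels were 2.60, 6.09 and 2.19 CPM in GFP+ and 3.55, 6.22 and 8.04 in GFP- cells at 48 hpf. The 72 hpf libraries held 4.44, 4.84 and 5.14 CPM in GFP+ and 0.0847, 4.34 and 2.42 in GFP- cells, where the lowest value was 1 read in replicate 1. At 72 hpf the fractions did not overlap, though the highest GFP- library was close to the lowest GFP+ library. The log2FC there was 1.01 (95% interval -0.54 to 2.57), and without that replicate it was 0.52. Between the stages in GFP- cells it was -1.32 (-2.88 to 0.25), and -0.82 without that replicate. Neighbouring group means, from 5.93 CPM in GFP- cells at 48 hpf to 2.28 in GFP- cells at 72 hpf, overlapped.

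Versican is made from a pair of genes in zebrafish. The gene *vcanb* (ENSDARG00000009401) stood at 150.0, 398.5 and 149 CPM in GFP+ and at 95.4, 115 and 43.6 in GFP- cells at 48 hpf. By 72 hpf it stood at 94.8, 152 and 178 CPM in GFP+ and at 29.6, 86.5 and 95.3 in GFP- cells. The fractions were apart at 48 hpf, and at 72 hpf the lowest GFP+ library lay just under the highest GFP- library. The log2FC between them was 1.46 (SE 0.53, padj = 0.055) at 48 hpf and 1.00 (SE 0.52, padj = 0.21) at 72 hpf, neither past the threshold. With the replicate number as a block both passed, at 1.41 (padj = 0.0078) and 1.13 (padj = 0.031). The GFP+ library was above the GFP- library of the same number in each of the 3 pairs at each stage. Without GFP- replicate 1 at 72 hpf the 48 hpf value was 1.46 with padj = 0.017. Neighbouring group means, in the order GFP+ at 48 hpf, GFP+ at 72 hpf, GFP- at 48 hpf and GFP- at 72 hpf, overlapped, and the stage differences of -0.72 in GFP+ (95% interval -1.84 to 0.41) and -0.26 in GFP- cells (-1.39 to 0.86) were not past the threshold. Like *has2*, *vcanb* followed the summed fibroblast markers, with r = 0.80.

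The other versican gene, *vcana* (ENSDARG00000103515), is used in zebrafish as a marker of AVC myocardium. At 48 hpf it stood at 9.94, 10.5 and 6.90 CPM in GFP+ and at 3.86, 5.29 and 1.15 in GFP- cells. The 72 hpf values were 7.82, 3.30 and 10.4 CPM in GFP+ and 7.79, 18.3 and 13.2 in GFP- cells. The GFP+ libraries were therefore all above the GFP- libraries at 48 hpf, while at 72 hpf the groups overlapped and the GFP- mean was the higher, at 13.1 ± 5.24 against 7.19 ± 3.61 CPM (SD, n = 3). The 48 hpf log2FC of 1.40 (SE 0.54, padj = 0.068) passed with the replicate block (1.61, padj = 0.038), without GFP- replicate 2 at 48 hpf (1.85, padj = 0.047) and without GFP- replicate 1 at 72 hpf (1.40, padj = 0.041). The 72 hpf value was -0.87 (SE 0.53, padj = 0.28). In GFP- cells *vcana* rose between the stages by a log2FC of 1.93 (SE 0.55, padj = 0.012), a call that held without any single library. In GFP+ cells it did not pass, at -0.35 (95% interval -1.48 to 0.79). The interaction was -2.28 (SE 0.75, padj = 0.083), and without GFP- replicate 1 at 72 hpf it passed (-2.51, padj = 0.044). With the summed AVC myocardium markers *vcana* had r = 0.35 over the 12 libraries. Its r was 0.75 with the fibroblast, 0.73 with the endothelial, 0.71 with the valve endocardium and 0.70 with the liver sum. The part of these cells in the differences of *vcana* was not tested.

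The link proteins are also a pair. At 48 hpf *hapln1a* (ENSDARG00000089769) stood at 646, 1001 and 630 CPM in GFP+ and at 442, 461 and 552 in GFP- cells. Values at 72 hpf were 144, 250.1 and 409 CPM in GFP+ and 65.7, 456 and 468 in GFP- cells. The fractions were apart at 48 hpf and overlapped at 72 hpf, and the GFP+ libraries of 72 hpf all lay below those of 48 hpf. Its log2FC between the stages in GFP+ cells was -1.51 (SE 0.58, padj = 0.081), which passed with the replicate block (-1.64, padj = 0.036) and without GFP- replicate 1 at 72 hpf (-1.50, padj = 0.0040). That replicate held the lowest *hapln1a* of all 12 libraries, and without it the SE was 0.33. In GFP- cells the stage difference was -0.55 (95% interval -1.79 to 0.68), and -0.09 without that replicate. The fractions differed by 0.65 (-0.59 to 1.88) at 48 hpf, past no threshold, and by -0.30 (-1.54 to 0.93) at 72 hpf, or -0.77 without it.

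The other link protein gene, *hapln1b* (ENSDARG00000068516), stood at 105, 145 and 87.2 CPM in GFP+ and at 65.9, 119 and 31.2 in GFP- cells at 48 hpf. By 72 hpf the libraries held 79.1, 96.6 and 175 CPM in GFP+ and 249, 530.3 and 387 in GFP- cells. The 3 GFP- libraries of 72 hpf were the highest of the 12, and the other 3 groups overlapped. In GFP- cells *hapln1b* rose 5.40-fold (log2FC 2.43, SE 0.49, padj = 0.0020), also without any single library, whereas in GFP+ cells the stage difference was 0.06 (95% interval -0.95 to 1.07). Between the fractions it was 0.64 (-0.37 to 1.66) at 48 hpf and -1.73 (SE 0.48, padj = 0.026) at 72 hpf. The 72 hpf call was lost without GFP+ replicate 1 (-1.58, padj = 0.094), GFP+ replicate 2 (-1.61, padj = 0.11) or GFP- replicate 2 (-1.44, padj = 0.074), and with total counts (-1.80, padj = 0.060). The interaction was -2.38 (SE 0.67, padj = 0.047). It was lost when any of 8 of the 12 libraries was left out (padj 0.074 to 0.12), the exceptions being GFP- replicate 2 at 48 hpf, GFP+ replicate 3 at 72 hpf and GFP- replicates 1 and 3 at 72 hpf. It was lost as well with total counts (-2.44, padj = 0.11) and with no filter on low counts (-2.35, padj = 0.054). Marker sums of other cells moved with *hapln1b* in part. Over the 12 libraries r was 0.71 with endothelial, 0.62 with leukocyte, 0.60 with liver and 0.58 with valve endocardium sums. In GFP- replicates 1 to 3 the endothelial sum was 858, 1668.5 and 463 CPM at 48 hpf. At 72 hpf it was 761, 2676 and 1647. The 4 leukocyte markers summed at 72 hpf to between 2.88 and 8.06 CPM in GFP+ and 46.4 and 118 in GFP- libraries. Their part in the differences of *hapln1b* was not tested.

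Within a library the share between the copies of a pair does not depend on scaling. The log2 ratio of *hapln1a* to *hapln1b* counts was 2.62, 2.79 and 2.85 in GFP+ and 2.75, 1.96 and 4.14 in GFP- replicates at 48 hpf. At 72 hpf it was 0.86, 1.37 and 1.22 in GFP+ and -1.92, -0.22 and 0.28 in GFP- replicates. The 72 hpf libraries of each fraction all lay below its 48 hpf libraries, and at 72 hpf the fractions were apart. As a geometric mean, counts of *hapln1a* went from 6.74 to 2.22 times those of *hapln1b* in GFP+ cells and from 7.72 to 0.65 times in GFP- cells. For *vcana* over *vcanb* the log2 ratio was -2.34 ± 0.47 in GFP- cells at 72 hpf, against -4.53 ± 0.67, -4.77 ± 0.42 and -4.40 ± 1.00 (SD, n = 3) in GFP+ cells at 48 hpf, GFP- cells at 48 hpf and GFP+ cells at 72 hpf. The 3 libraries of the first group were above the other 9. These ratios are descriptions and mix the lengths of the transcripts with their levels.

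**Figure D3:**
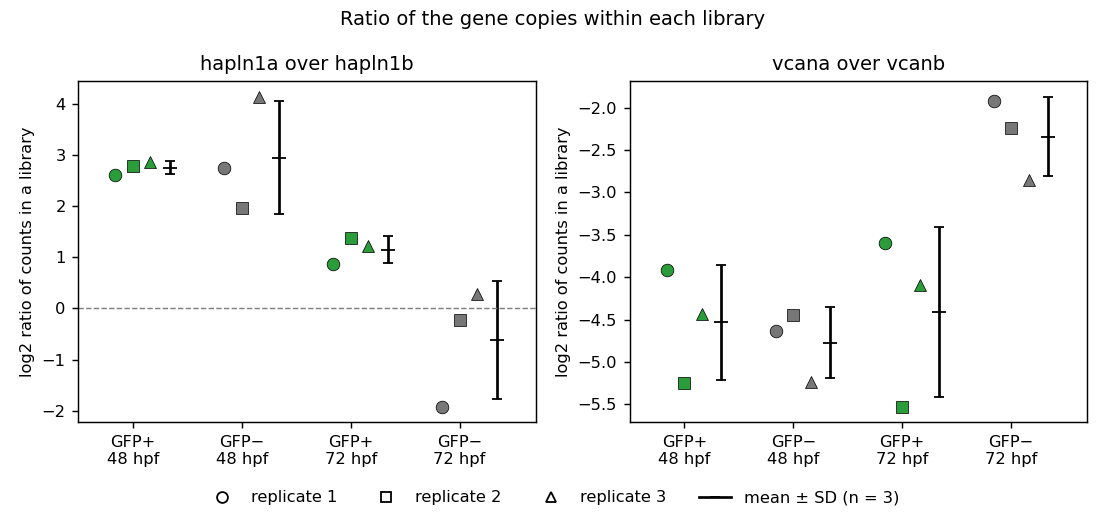
Log2 ratio of the counts of *hapln1a* to *hapln1b* (left) and of *vcana* to *vcanb* (right) in each of the 12 libraries, with the mean and SD (n = 3) beside each group. The *hapln1a* to *hapln1b* ratio is lower at 72 than at 48 hpf in both fractions, and the *vcana* to *vcanb* ratio is highest in the GFP- libraries at 72 hpf.

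The receptor gene *cd44a* (ENSDARG00000087863), which encodes a membrane protein that binds hyaluronan, had the largest difference between the fractions among the 9 genes at both stages. At 48 hpf it stood at 11.6, 1.94 and 12.1 CPM in GFP+ cells and at 0.283, 0.0274 and 0 in GFP- cells, where the counts were 11, 1 and 0 reads. At 72 hpf it stood at 6.05, 8.98 and 5.34 CPM in GFP+ and at 0.593, 0.610 and 0.545 in GFP- cells. GFP+ libraries lay above GFP- libraries at both stages without overlap. The log2FC was 6.24 (SE 0.92, padj = 0.00044) at 48 hpf and 3.54 (SE 0.79, padj = 0.0078) at 72 hpf, and both calls held without any single library. The size at 48 hpf rests on 12 GFP- reads in all, and it was between 5.70 and 8.86 with a library left out, the highest without GFP- replicate 1, which held 11 of those reads. Marker sums of other cells moved with *cd44a* in part. In GFP+ replicate 2 at 48 hpf, where *cd44a* was 1.94 CPM, the liver markers summed to 553 CPM and 5 keratinocyte markers to 1717, against 2405 and 3950 in replicate 1 and 1963 and 3050 in replicate 3. Over the 12 libraries r was 0.93 with the keratinocyte, 0.89 with the cardiomyocyte, 0.76 with the liver, -0.80 with the neuron and -0.86 with the retina sum. At 72 hpf the liver sums overlapped between the fractions, at 2498 to 3146 CPM in GFP+ and 1902 to 5289 in GFP- libraries, while *cd44a* was higher in GFP+ libraries. The keratinocyte sums of that stage were apart, at 1145.5 to 1974.5 CPM in GFP+ and 200 to 351 in GFP- libraries. The part of these cells in the differences of *cd44a* was not tested. The rise in GFP- cells between the stages, 2.38 (SE 0.91, padj = 0.046), was lost without 10 of the 12 libraries in turn (padj 0.053 to 0.14), the exceptions being GFP+ replicate 2 and GFP- replicate 1 at 48 hpf. Without the latter it was 4.99 (padj = 0.0077), and it was lost with total counts (2.15, padj = 0.077) and when only those groups were fitted (2.41, padj = 0.074). In GFP+ cells the difference was -0.33 (95% interval -1.80 to 1.14). The interaction, at -2.71 (SE 1.14, padj = 0.16), passed without GFP- replicate 1 at 48 hpf (-5.32, padj = 0.042).

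Among themselves the genes fell into patterns rather than moving as 1 group. Over the 12 libraries the highest Pearson's r of log2 CPM were 0.89 for *has1* with *ugdh*, 0.84 for *vcana* with *hapln1b* and 0.80 for *ugdh* with *cd44a*. Next came 0.74 for *has2* with *vcana*, 0.73 for *has2* with *hapln1b*, 0.68 for *has3* with *hapln1a*, 0.66 for *has2* with *ugdh* and 0.65 for *vcanb* with *hapln1a*. The copies of a pair were not alike, with r = -0.14 for *hapln1a* with *hapln1b* and 0.34 for *vcana* with *vcanb*. These points share 4 group means and the scaling, so r is a description.

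**Figure D4:**
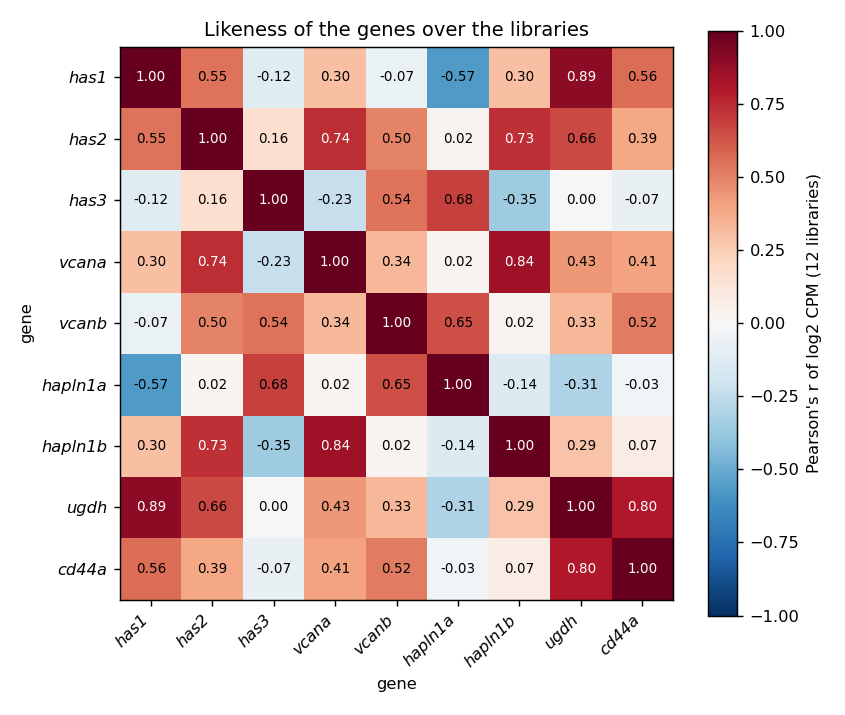
Pearson's r of log2 CPM over the 12 libraries for each pair of the 9 genes, from blue (-1) to red (1). The pairs *has1* with *ugdh* (0.89) and *vcana* with *hapln1b* (0.84) are the most alike, and *hapln1a* is unlike *hapln1b* (-0.14).

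The genes nearest to 3 of the members were looked up over 11335 genes that averaged 3 or more in log2 CPM. For *has2* they were the identifiers named RNPEPL1 (r = 0.97), CYP26B1 (0.96), an enzyme that breaks down retinoic acid, and ITPRID2 (0.95). For *vcana* they were *igf2b* (0.92), an insulin-like growth factor, SCARF1 (0.92) and BMP6 (0.91), a bone morphogenetic protein. For *hapln1a* they were PTCH1 (0.95), the receptor of Hedgehog ligands, *si:dkey-195m11.8* (0.95) and *zgc:158464* (0.95). Symbols in capitals are those the name table gives.

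Around these genes, 76 identifiers of 6 lists cover the rest of the pathway, and 70 were kept by the filter. Of these, 23 were higher and 5 lower in GFP+ cells at 48 hpf, and 17 were higher and 5 lower at 72 hpf. Between the stages 20 rose and 9 fell in GFP+ cells, and 29 rose and 10 fell in GFP- cells. As shares, 40.0%, 31.4%, 41.4% and 55.7% of the 70 passed, beside 28.9%, 17.0%, 22.9% and 48.3% of all genes.

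The 11 other sugar nucleotide genes had calls in the direction of *ugdh* only. At 48 hpf 9 of 11 were higher in GFP+ cells and at 72 hpf 5 of 11, while 6 rose between the stages in GFP+ and 9 in GFP- cells, and the rest passed in neither direction. These shares of 81.8%, 45.5%, 54.5% and 81.8% stand beside 28.9%, 17.0%, 22.9% and 48.3% of all genes called in either direction. The list's median log2FC was 1.14, 0.83, 0.73 and 1.09 in the 4 comparisons. The amidotransferase *gfpt2*, the entry step to UDP-N-acetylglucosamine, was 6.05-fold higher in GFP+ cells at 72 hpf (14.1 against 2.32 CPM, log2FC 2.60, padj = 0.00084). The pyrophosphorylase *uap1*, the last step of that route, reached 102 against 35.3 CPM there (log2FC 1.53, padj = 0.0020) and had risen in GFP+ cells by 1.78 (padj = 0.00097). The acetyltransferase *gnpnat1* rose in GFP- cells from 9.03 to 36.6 CPM (log2FC 2.02, padj = 0.00036). An identifier named SLC35D1, a transporter of nucleotide sugars, was at 47.4 against 13.6 CPM in GFP+ cells at 48 hpf (log2FC 1.80, padj = 0.0022).

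Of 8 genes for the breakdown of hyaluronan, 1 passed in each comparison of the fractions and 2 in each comparison of the stages. As shares, 12.5% passed beside 28.9% of all genes at 48 hpf and 17.0% at 72 hpf. Between the stages 25.0% passed, beside 22.9% of all genes in GFP+ and 48.3% in GFP- cells. The hyaluronan depolymerising protein gene *cemip* was 3.02-fold higher in GFP+ cells at 72 hpf (72.6 against 24.0 CPM, padj = 0.014) and had risen there from 16.1 CPM (log2FC 2.17, padj = 0.0026). An identifier named HYAL2, a hyaluronidase of the cell surface, fell in the same cells from 16.1 to 2.02 CPM (log2FC -3.01, padj = 0.0042). Another identifier of that name was not called there, at 57.9 CPM at 48 hpf and 45.3 at 72 hpf (log2FC -0.35, padj = 0.53). In GFP- cells *hyal4* rose from 1.91 to 11.9 CPM (log2FC 2.64, padj = 0.0021).

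Among 8 other receptor genes, 3 were higher and 1 lower in GFP+ cells at 48 hpf, and 2 were lower at 72 hpf. Those shares of 50.0% and 25.0% stand beside 28.9% and 17.0% of all genes. With the replicate block the 48 hpf count was 1 higher and 1 lower. Between the stages 0 rose and 3 fell in GFP+ cells, and 4 rose and 1 fell in GFP- cells. These are 37.5% and 62.5%, beside 22.9% and 48.3% of all genes. The largest of the rises in GFP- cells was that of *lyve1a* (log2FC 3.46, padj = 0.0022). The copy of *cd44a*, *cd44b*, went the other way: it was at 0.145 CPM in GFP+ and 1.47 in GFP- cells at 72 hpf (log2FC -3.26, padj = 0.00090). At 48 hpf, a value picked after it was seen, its log2FC was -2.16 (padj = 0.0087). The scavenger receptor gene *stab1* fell in GFP+ cells from 47.0 to 6.17 CPM (log2FC -2.93, padj = 0.0056). The receptor gene *lyve1a* was at 3.43 CPM in GFP+ and 0.437 in GFP- cells at 48 hpf (log2FC 2.94, padj = 0.0071). The intracellular binding protein gene *hmmr*, also a mitotic spindle gene, fell between the stages by 1.32 in GFP+ (padj = 0.0030) and by 1.85 in GFP- cells (padj = 0.00023) on the log2 scale.

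Of 12 other matrix genes that bind hyaluronan, 4 were higher and 2 lower in GFP+ cells at 48 hpf and 3 and 2 at 72 hpf. These are 50.0% and 41.7%, beside 28.9% and 17.0% of all genes. Between the stages 4 rose and 2 fell in GFP+ cells, and 7 rose and 2 fell in GFP- cells. Those shares of 50.0% and 75.0% stand beside 22.9% and 48.3% of all genes. The hyaluronan-binding gene *tnfaip6*, whose product transfers heavy chains onto hyaluronan, rose from 7.88 to 159 CPM in GFP+ cells (log2FC 4.33, padj = 0.00029) and from 1.83 to 126 CPM in GFP- cells (log2FC 6.10, padj = 4.2e-05). The aggrecan gene *acana* was at 143 CPM in GFP+ and 10.2 in GFP- cells at 72 hpf (log2FC 3.80, padj = 0.0027). It is also on the cartilage marker list, whose other 6 genes summed to between 78.1 and 216 CPM in GFP+ and between 83.6 and 148 in GFP- cells at 72 hpf. The heavy chain gene *itih2*, which the liver secretes in mammals, was at 32.4 CPM in GFP+ and 0.749 in GFP- cells at 48 hpf (log2FC 5.41, padj = 0.00025), beside the liver marker sums given above. The identifier named NCAN, for the neural proteoglycan neurocan, was at 2.17 CPM in GFP+ and 60.7 in GFP- cells at 48 hpf (log2FC -4.80, padj = 0.00036), beside the neuron sums. Between the stages NCAN fell in GFP+ (log2FC -6.85, padj = 0.00069) and in GFP- cells (log2FC -5.81, padj = 0.00013).

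Of the 7 versican-cleaving proteases, 3 were higher in GFP+ cells at 48 hpf, and 2 were higher and 1 lower at 72 hpf. That is 42.9% at each stage, beside 28.9% and 17.0% of all genes. Between the stages 4 of the 7 rose and 1 fell in GFP+ cells, and 3 rose and 0 fell in GFP- cells. Those shares of 71.4% and 42.9% stand beside 22.9% and 48.3% of all genes. The gene *adamts15a* was higher in GFP+ cells at both stages, at 28.5 against 8.02 CPM (log2FC 1.83, padj = 0.0050) and 80.3 against 26.3 CPM (log2FC 1.60, padj = 0.016). The gene *adamts5* fell in GFP+ cells from 3.57 to 0.472 CPM (log2FC -2.95, padj = 0.0072), and at 72 hpf it was lower there than in GFP- cells, at 2.43 CPM (log2FC -2.40, padj = 0.023). Of 24 genes for the chondroitin sulfate chains that versican carries, 3 were higher and 2 lower in GFP+ cells at 48 hpf, and 6 were higher at 72 hpf. Between the stages 5 rose and 2 fell in GFP+ cells, and 4 rose and 7 fell in GFP- cells. In the 4 comparisons 20.8%, 25.0%, 29.2% and 45.8% of the 24 passed, beside 28.9%, 17.0%, 22.9% and 48.3% of all genes. The galactosyltransferase *b4galt7* rose in GFP+ cells from 19.1 to 62.2 CPM (log2FC 1.70, padj = 0.00063), while *xylt1*, which starts the chain, fell in GFP+ by 1.68 (padj = 0.0032) and in GFP- cells by 2.09 (padj = 0.00047) on the log2 scale.

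**Figure D5:**
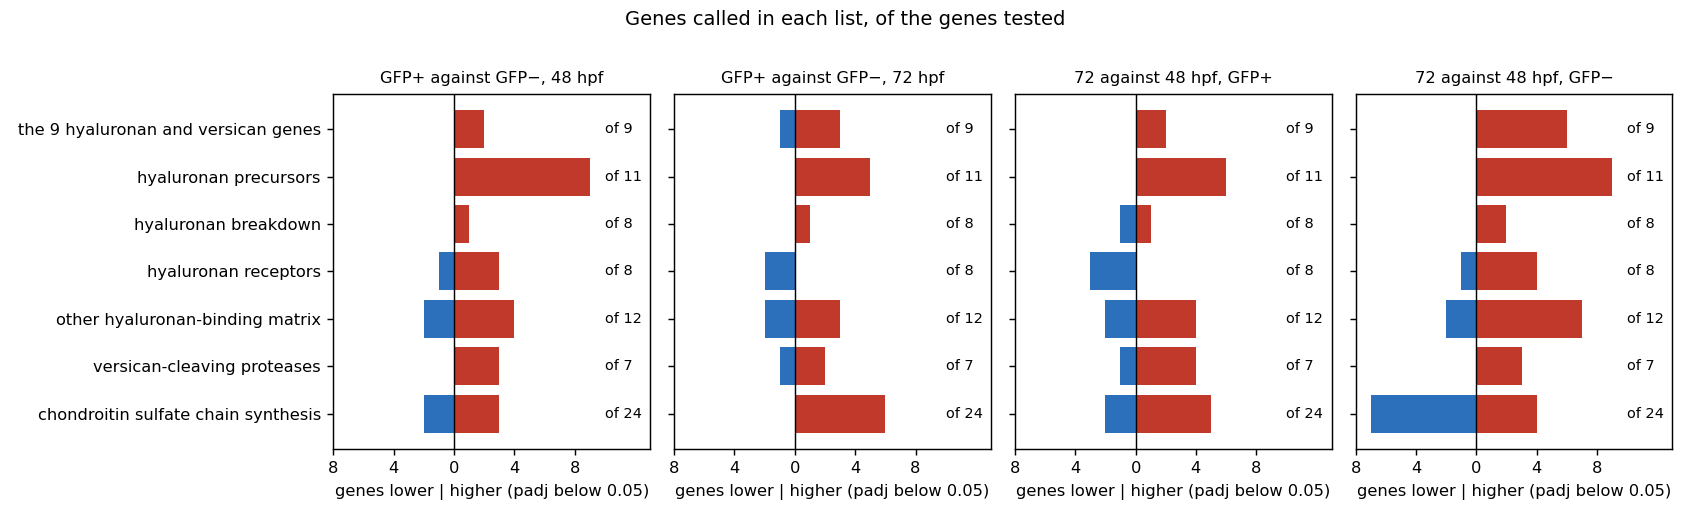
Number of genes higher (red, to the right) or lower (blue, to the left) at padj below 0.05 in each list, with the number tested at the right, in the 4 comparisons. The precursor list has 9 of 11 genes higher in GFP+ cells at 48 hpf and 9 of 11 rising in GFP- cells, beside 14.6% and 26.1% of all genes.

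In the interaction 3 of the 70 pathway genes passed, 4.29% beside 8.17% of all genes, with the difference between the fractions moving downward from 48 to 72 hpf: *lyve1b* (-5.38, padj = 0.039), *itih2* (-4.27, padj = 0.012) and *ambp* (-3.87, padj = 0.0064), the last of which is also on the liver marker list. All 9 liver markers that were tested passed in the same direction. Mean levels of *lyve1b* were 3.06 CPM in GFP+ and 0.383 in GFP- cells at 48 hpf, and 0.464 and 2.56 at 72 hpf. With the replicate block *lyve1b* was not called (-4.29, padj = 0.13), while 8 of the pathway genes passed beside 2572 of all genes. Without GFP- replicate 1 at 72 hpf 13 of the pathway genes passed beside 2655 of all genes, against 1897 with all libraries.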

How the data were processed

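Poly-A RNA of sorted cells was made into full-length cDNA (SMART-Seq v4, Nextera XT) and sequenced as 12 libraries. The submitters' processing notes name bcl2fastq 2.16.0.10, Cutadapt 1.17, Salmon 0.9.1, R 3.5.2, DESeq2 1.29.13 and the build GRCz11. The deposited counts are whole numbers, 1 for each Ensembl gene in a library, which the authors did not normalize, so reads of near-identical copies may have been divided by Salmon's estimates, and reads of overlapping genes on opposite strands cannot be told apart. How transcripts were summed to genes is not given in the sources used here. Symbols came from the study's supplementary tables (4144 of 27191 genes) and a name table (21464), and 1583 had none.

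Counts were filtered with filterByExpr by group, scaled by TMM and fitted as 4 groups with edgeR 4.0.16 (glmQLFit, glmQLFTest) in R 4.3.3 with limma 3.58.1. P-values were adjusted by Benjamini-Hochberg over 23222 genes, with padj below 0.05 as the limit and no fold limit. Standard errors are the absolute log2FC divided by the root of F, and 95% intervals use the fit's degrees of freedom. Correlations use log2 CPM with a prior count of 2. The fit was also run on simulated counts. Those were drawn independently for each library, so that run cannot speak to pairing or technical replicates. Tables were made with Python 3.11.15, pandas 2.3.3, numpy 2.4.6 and matplotlib 3.10.9.

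The members and lists were chosen with earlier results of these data known. All 9 members are named, and from each other list at most the 3 genes with the largest change in a comparison, leaving out genes at 0 counts in all libraries of a group. Members are described across groups and not across genes, since no transcript lengths were used. Alternatives were DESeq2 size factors, total counts, the Wald test of DESeq2 1.42.0, leaving low genes in, a minimum of 10 counts in every library of some group, only the groups compared, a replicate block and leaving out each library. The pairing comes from the study's methods, in which 1 replicate held both fractions at both stages. The correlation of deviations between same-numbered fractions lay between 0.097 and 0.31 for the 48 hpf libraries, between -0.082 and 0.37 for those of 72 hpf, and between -0.11 and 0.28 across the stages. The study elsewhere calls the replicates technical, so p-values may measure only technical spread.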

Additional observations from a re-analysis of the deposited data

Results flagged for a closer look

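The difference of *hapln1b* between the fractions changed with the stage. The log2FC of GFP+ over GFP- cells at 72 hpf minus that at 48 hpf was -2.38 (SE 0.67, edgeR padj = 0.047, with the replicate block padj = 0.013). GFP+ libraries held 87.2 to 145 CPM at 48 hpf and 79.1 to 175 at 72 hpf, and GFP- libraries 31.2 to 119 and 249 to 530.3. The call was lost with total counts (-2.44, padj = 0.11) and with no filter on low counts (-2.35, padj = 0.054). The libraries whose removal ends the call are named with the gene above, as are marker sums that moved with it in part.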

How the results depend on the processing

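Depth limits *has1* at 48 hpf, *has3* in GFP- replicate 1 at 72 hpf and *cd44a* in GFP- cells, all at few reads. Over the 9 genes and 5 comparisons, DESeq2's size factors and the stricter filter changed no call. At 48 hpf 2 of the 9 genes were called between the fractions, and 4 with the replicate block, 4 with DESeq2's Wald test and 5 when only those groups were fitted. Over all genes the calls in that order were 6720 of 23222, 7613 of 23222, 8089 of 27191 and 9668 of 21857. At 72 hpf 4 were called, and 2 with total counts and 2 when only those groups were fitted, beside 3944 of 23222, 2934 of 23222 and 2341 of 21986 genes. Between the stages total counts left 1 of 2 in GFP+ and 3 of 6 in GFP- cells, where calls among all genes went from 5323 to 4032 and from 11219 to 8943. For the interaction edgeR called 1, and 0 with total counts or with no filter, where 3 had an unadjusted p below 0.05, and DESeq2 called 2. The replicate block changed no call of the 9 genes other than those given with *vcana*, *vcanb* and *hapln1a*. Of the pathway genes, 22 were called at 72 hpf, and 11 with total counts and 10 when only those groups were fitted, while the interaction had 3, and 8 with the replicate block and 19 with DESeq2. Leaving out each library gave 2 to 4 of the 9 genes at 48 hpf, 2 to 4 at 72 hpf, 2 to 3 and 4 to 5 between the stages in GFP+ and GFP- cells, and 0 to 2 for the interaction. The pathway counts ran from 18 to 33, 12 to 24, 19 to 35, 31 to 43 and 2 to 13 in the same order. Calls over all genes ran from 4573 to 9342, 2408 to 4473, 2943 to 8260, 8882 to 12054 and 967 to 3564, in that order.

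Directions turned for values that passed no test. The log2FC of *has2* between the fractions at 72 hpf was -0.0021 with DESeq2's size factors, -0.12 with total counts and -0.062 when only those groups were fitted. That of *hapln1a* was 0.011 with the replicate block, and that of *hapln1b* between the stages in GFP+ cells was -0.22 with total counts. Leaving out each library gave -0.34 to 0.38 for *has2* and -0.77 to 0.036 for *hapln1a* between the fractions at 72 hpf. Between the stages in GFP+ cells it gave -0.71 to 0.0051 for *vcana*, -0.35 to 0.28 for *hapln1b* and -0.80 to 0.0029 for *cd44a*, and in GFP- cells -0.59 to 0.081 for *vcanb*. For the interaction it gave -0.80 to 0.19 for *vcanb* and -0.14 to 0.16 for *ugdh*. The cause of these turns was not tested. Over all genes, the count between the fractions at 72 hpf was 3944, and 2341 when only those groups were fitted. Between the stages in GFP+ cells it was 5323, and 8000 when only those groups were fitted and 8260 without GFP- replicate 1 at 72 hpf. For the interaction it was 1897, and 1186 with total counts and 3792 with DESeq2. Total counts moved the share of higher calls from 49.8% to 32.5% between the stages in GFP+ cells and from 30.2% to 15.1% for the interaction.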

Other observations

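In the RefSeq annotation of GRCz12tu, *vcana* lies beside *hapln1a* on chromosome 5 and *vcanb* beside *hapln1b* on chromosome 10. Levels over the 12 libraries were more alike across these pairs than within them. Pearson's r of log2 CPM was 0.84 for *vcana* with *hapln1b* and 0.65 for *vcanb* with *hapln1a*, against 0.02 for the neighbours *vcana* and *hapln1a* and 0.02 for *vcanb* and *hapln1b*. The pairs were picked after these values were seen, the libraries share groups and scaling, and no test was made.

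Of all marker sums, *hapln1a* followed that of 8 neural crest and pigment cell identifiers most closely (r = 0.84 over the 12 libraries), although those markers summed to no more than 30.5 CPM in any library. Its r with the endothelial sum was 0.41 and with the cardiomyocyte sum -0.10.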
